A study of Rattus norvegicus with 11 samples.

Results

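Nppa, Nppb, Myh7 and Acta1, the natriuretic peptide genes and fetal sarcomere genes that mark a mechanically loaded ventricle, were followed in the right ventricle of rats given monocrotaline or vehicle. The 4 genes were chosen by their Ensembl IDs, which were supplied paired with these symbols. Of the 4 IDs, 3 were among the 37550 features of the count table: ENSRNOG00000008176 (Nppa), ENSRNOG00000008141 (Nppb) and ENSRNOG00000017786 (Acta1). The Myh7 ID, ENSRNOG00000016983, was absent from the table and was not replaced, so beta myosin heavy chain has no value here. The 3 genes in the table all passed the filter on low counts and were tested.

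The animals were Sprague Dawley rats, and both groups share the strain and the tissue, the right ventricle freed from the left ventricle and the vessels. The vehicle group had 6 libraries, numbered 1 to 6, and the monocrotaline group had 5, numbered 1, 2, 3, 4 and 6. Monocrotaline is a toxin of Crotalaria plants that damages small arteries of the lung in rats, so that the right ventricle pumps against a higher pressure, and vehicle is its carrier alone. The labels used here state no dose, time, age or sex and do not tie each library to a separate rat, so the p-values rest on the spread from library to library, which may be in part technical. Total counts ran from 9581924 to 14438355 per library. Ensembl IDs other than these members are not paired with gene names in the files, so the labelled tissue could not be checked against heart markers, and the other genes of the pathway were not analysed here.

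Nppa encodes the precursor of atrial natriuretic peptide and Nppb that of B-type natriuretic peptide. Both are secreted by cardiomyocytes under stretch and act on kidney and vessels to lower blood volume and pressure. In the adult heart Nppa is expressed mainly in the atria, and ventricular cardiomyocytes express it again under sustained load. Acta1 encodes skeletal muscle alpha-actin, a thin filament protein of the sarcomere that is expressed in the developing ventricle and returns in hypertrophy. Myh7 encodes the slow beta myosin heavy chain, which rises in the loaded rat ventricle as the fast alpha form falls. In bulk tissue a change in the number of cells of a type and a change in RNA per cell cannot be told apart.

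The stretches before the transcription starts are shown because the 3 measured genes rose together. Symbols of 4 of the 4 members matched RefSeq's promoter table of the GRCr8 build, and Nppb and Nppa are neighbouring genes on chromosome 5 there, both on the plus strand. The Nppa stretch is chr5:163711934-163712183 (plus strand), the Nppb stretch chr5:163699758-163699954 (plus strand), and the Acta1 stretch chr19:68784195-68784444 (minus strand). Each is written 5′ to 3′ and ends before the first annotated exon. Capitals mark matches, on either strand, to 4 motifs: GATAA (the core bound by GATA factors), CATTCC (the M-CAT element bound by TEAD factors), the CArG box bound by serum response factor, and TATAAA (the TATA box).
Nppa: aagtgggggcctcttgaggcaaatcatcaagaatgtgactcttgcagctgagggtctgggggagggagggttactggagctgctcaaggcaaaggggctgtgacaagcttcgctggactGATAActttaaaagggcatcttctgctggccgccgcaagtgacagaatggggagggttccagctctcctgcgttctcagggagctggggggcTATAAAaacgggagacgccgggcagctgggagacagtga
Nppb: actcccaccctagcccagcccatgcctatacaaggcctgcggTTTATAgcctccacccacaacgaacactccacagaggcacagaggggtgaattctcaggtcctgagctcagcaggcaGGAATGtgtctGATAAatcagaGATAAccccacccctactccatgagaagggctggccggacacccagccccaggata
Acta1: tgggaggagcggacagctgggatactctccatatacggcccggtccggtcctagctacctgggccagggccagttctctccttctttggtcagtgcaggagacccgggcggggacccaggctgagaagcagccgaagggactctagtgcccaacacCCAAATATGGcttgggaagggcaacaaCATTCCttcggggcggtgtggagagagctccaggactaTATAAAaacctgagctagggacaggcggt

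In the whole window of 250 bases before to 50 bases after the start, Nppa held 1 GATAA and 1 TATAAA. Nppb held 3 GATAA, 1 of them running past the end of the printed stretch and so unmarked, 1 CATTCC and 1 TATAAA. The CATTCC and the TATAAA were read on the opposite strand. Acta1 held 1 CArG box, 1 CATTCC and 1 TATAAA. Among 33469 windows of the same length, 26.5% held GATAA, 14.2% CATTCC, 14.2% TATAAA and 1.64% a CArG box. No printed matches overlapped, and no single motif other than TATAAA was found in all 3 windows. The place of TATAAA differed. It began 39 bases before the start in Nppa and 29 in Acta1, but 208 in Nppb, there on the opposite strand. These distances count from the start in RefSeq's promoter table. For Nppb the annotated gene start lies 53 bases before that start, so distances counted from it would be shorter. A match is a stretch of letters and says nothing of binding in these hearts.

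All 3 measured genes rose with monocrotaline, each by more than 5-fold, and for each the lowest monocrotaline library lay above the highest vehicle library. Of 15099 features tested by edgeR's quasi-likelihood test, 12.7% were called higher at a Benjamini-Hochberg adjusted p (FDR) under 0.05, and in 6% the monocrotaline libraries all lay above the vehicle libraries. The 3 genes were 3 of 3 by both measures. They were chosen with earlier results of these data known, so this count is a description. Their log2 fold changes ranked 6th (Nppa), 29th (Nppb) and 65th (Acta1) from the top of the 15099, whose median was -0.01. Levels below are counts brought to a common library size (CPM), with TMM factors and not by gene length, so they are compared between libraries and not between genes.

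Nppa, the atrial natriuretic peptide gene, rose the most of the 3. In the vehicle libraries it stood at 33.6, 149, 40.8, 44.3, 1003 and 27.5 CPM in replicates 1 to 6. In monocrotaline replicates 1, 2, 3, 4 and 6 it stood at 3612, 2938, 7302, 2081 and 3748 CPM. Vehicle replicate 5 lay far above the other vehicle libraries, at 6.73 times the next, and yet below every monocrotaline library. The vehicle group averaged 216 ± 388 CPM (SD, n = 6) and the monocrotaline group 3936 ± 1994 CPM (SD, n = 5). The log2 fold change was 4.18, SE 1.04 (edgeR, FDR = 0.0147). Vehicle replicate 5 set much of that mean and error. Without it the vehicle mean was 59.05 ± 50.8 CPM (SD, n = 5) and the log2 fold change was 6.06, SE 0.59 (edgeR, FDR = 3.96e-04). That library was set apart by its high Nppa, so these values follow almost by construction and are a description. Without monocrotaline replicate 3, the highest of its group, the log2 fold change was 3.85, SE 1.10 (edgeR, FDR = 0.0402). The share of all reads taken by Nppa ran from 0.204% to 0.916% in the monocrotaline libraries and from 0.00252% to 0.0963% in the vehicle libraries. With no filter on low counts the FDR was 0.0568.

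Nppb had the widest gap between the groups with all libraries, though not without vehicle replicate 5, as given for Nppa below. Its vehicle values in replicates 1 to 6 were 144, 178, 112, 94.1, 93.2 and 32.8 CPM. Its monocrotaline values in replicates 1, 2, 3, 4 and 6 were 652, 654, 857, 648 and 1130 CPM. Replicates 1, 2 and 4 were nearly equal, vehicle replicate 6 was the lowest of all, and the lowest monocrotaline library lay 3.63 times above the highest vehicle library. The vehicle mean was 109 ± 49.6 CPM (SD, n = 6) and the monocrotaline mean 788 ± 211 CPM (SD, n = 5). The log2 fold change was 2.85, SE 0.34 (edgeR, FDR = 5.43e-04). Vehicle replicate 5, so high for Nppa, was second lowest for Nppb.

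Acta1 rose as well, with groups that only just failed to overlap. Its vehicle values in replicates 1 to 6 were 261, 980.4, 217, 560, 381 and 162 CPM. In monocrotaline replicates 1, 2, 3, 4 and 6 it stood at 2228, 2207, 2158, 985.4 and 4158 CPM. Monocrotaline replicate 4 lay 1.005 times above vehicle replicate 2, while the other 4 monocrotaline libraries were far above every vehicle library. The group means were 427 ± 306 CPM for vehicle (SD, n = 6) and 2347 ± 1141 CPM for monocrotaline (SD, n = 5). The log2 fold change was 2.46, SE 0.47 (edgeR, FDR = 0.00411). RefSeq lists pseudogenes of Acta1 in the rat, and actin genes are much alike, so reads shared between copies could add to or be lost from these counts.

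**Figure D1:**
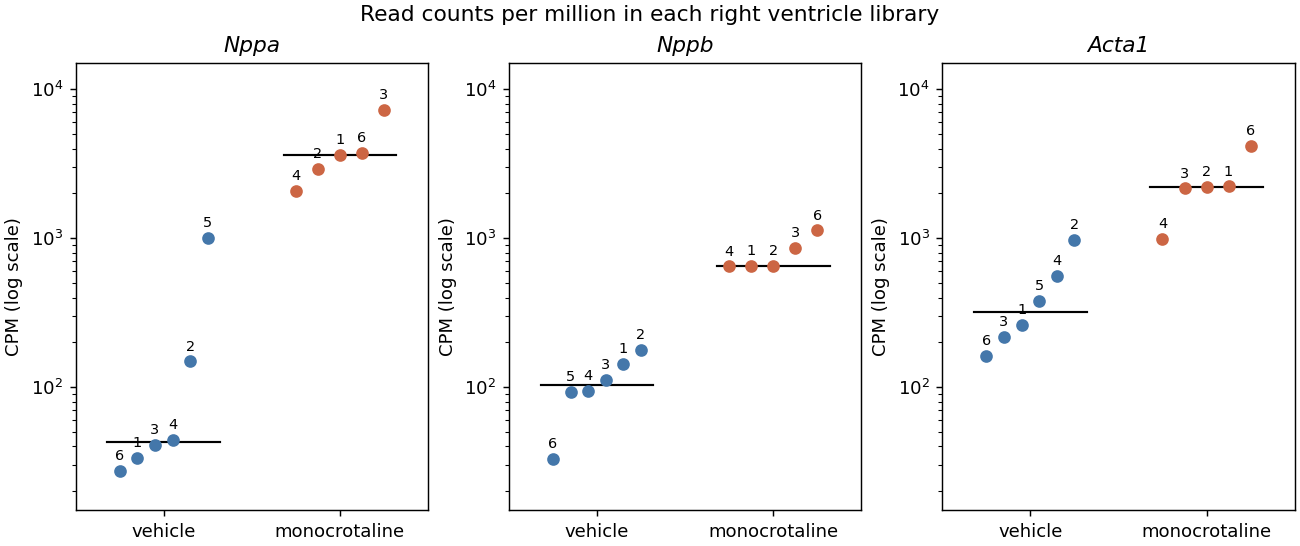
Each point is 1 library, numbered by replicate, with CPM on a log axis and a line at the group median, for Nppa, Nppb and Acta1. The groups do not overlap for any of the 3 genes; vehicle replicate 5 stands at 1003 CPM for Nppa, and monocrotaline replicate 4 is level with vehicle replicate 2 for Acta1 (985.4 against 980.4 CPM).

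The authors' deposited table gave log2 fold changes of 4.19 for Nppa, 2.85 for Nppb and 2.46 for Acta1. In the authors' deposited table the FDR was 1.55e-04 for Nppa, 3.34e-13 for Nppb and 8.04e-06 for Acta1, where 11.3% of 16646 rows were higher at an FDR under 0.05. The test behind the authors' deposited table is not given in the sources used here.

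Nppa rose more than the other two genes, by ratios of read counts taken inside each library, which need no scaling factor. The log2 ratio of Nppa over Nppb averaged -0.29 ± 1.95 in vehicle libraries (SD, n = 6) and 2.23 ± 0.58 in monocrotaline libraries (SD, n = 5). That difference of 2.52 had a 95% interval of 0.40 to 4.22 (exact two-sided permutation p = 0.0281, adjusted over 3 pairs 0.0422). In 5 of 6 vehicle libraries Nppb had more reads than Nppa, from 0.234 to 0.837 Nppa reads per Nppb read, and in all 5 monocrotaline libraries Nppa had more, from 3.21 to 8.52. The exception was vehicle replicate 5, with 10.8 Nppa reads per Nppb read, above every monocrotaline library.

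The log2 ratio of Nppa over Acta1 was -2.15 ± 1.79 in vehicle libraries (SD, n = 6) and 0.76 ± 0.72 in monocrotaline libraries (SD, n = 5). The difference of 2.91 had a 95% interval of 0.87 to 4.45 (exact permutation p = 0.013, adjusted p = 0.039). Both Nppa ratios kept their direction but passed an adjusted p of 0.05 in only 1 of the 11 sets that leave out 1 library, the one without vehicle replicate 5, where both had an adjusted exact permutation p of 0.0119. In that set the groups did not overlap in either ratio, so each unadjusted p was the smallest its splits allow. Over the other 10 sets the adjusted exact permutation p lay between 0.0643 and 0.0714. The log2 ratio of Nppb over Acta1 was -1.86 ± 0.76 in vehicle libraries (SD, n = 6) and -1.47 ± 0.53 in monocrotaline libraries (SD, n = 5). Its difference of 0.39 did not pass (exact permutation p = 0.348, adjusted p = 0.348), and the 95% interval of -0.49 to 1.33 includes unequal changes of either sign.

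**Figure D2:**
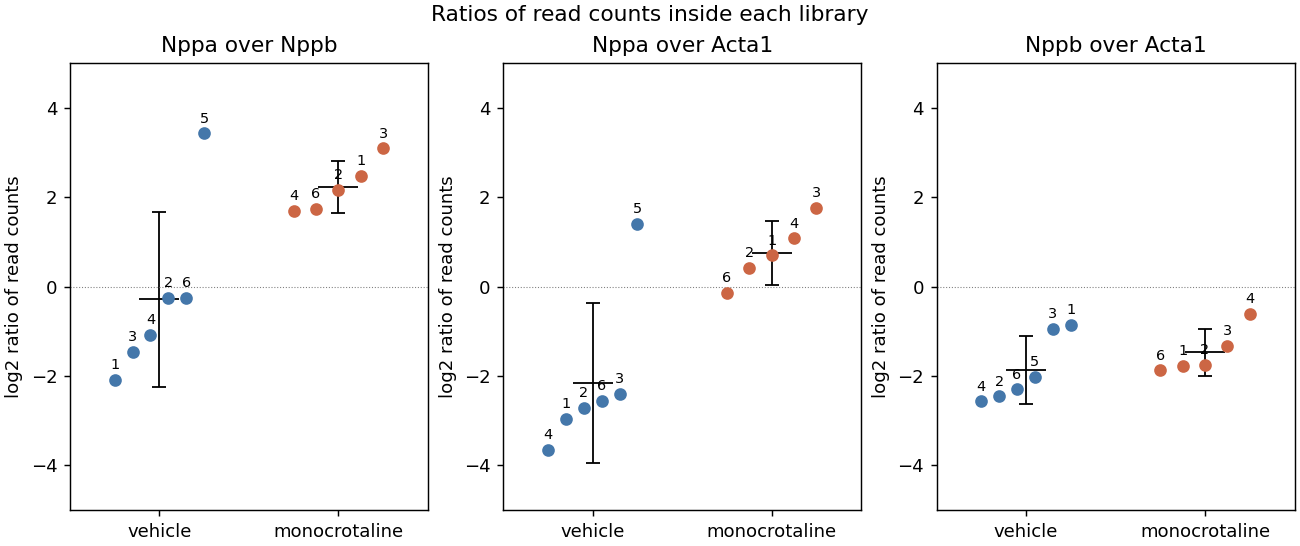
Points are log2 ratios of read counts inside each library, numbered by replicate, with the group mean and SD as bars, for Nppa over Nppb, Nppa over Acta1 and Nppb over Acta1. Vehicle replicate 5 lies among the monocrotaline libraries or above them in both Nppa ratios (3.43 and 1.40) and inside its own group for Nppb over Acta1.

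The Nppa value of vehicle replicate 5 came with high values of a small set of other transcripts. Among 13626 features with an average log2 CPM of at least 1, 10 stood at least 5-fold above the next vehicle library there, all 10 with an Ensembl ID, against 1 to 4 features in each of the other vehicle libraries. Nppa was 1 of the 10 and the only one called higher with monocrotaline by edgeR. The other 9 summed to 1225 CPM in vehicle replicate 5 and to between 22.6 and 65.8 CPM in the other vehicle libraries. The 5-fold rule used vehicle libraries, although the limits on low levels drew on all libraries. In the monocrotaline group all 9 were highest in replicate 3, the library with the highest Nppa. With the level set on the vehicle mean, replicate 5 included (at least 2 CPM, 13484 features), 13 IDs or loci other than Nppa stood out in vehicle replicate 5. The 9 were among them, and all 13 were highest in monocrotaline replicate 3. The 9 IDs summed to 2731 CPM in monocrotaline replicate 3, against 64.8, 28.75, 131 and 46.8 CPM in monocrotaline replicates 1, 2, 4 and 6.

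The 2 libraries rich in these 9 IDs are the highest of their group for Nppa, and neither was the highest for Nppb or Acta1. For vehicle replicate 5 this holds by construction, since the IDs were picked in the vehicle library with the highest Nppa. Vehicle replicate 5, vehicle replicate 6 and monocrotaline replicate 3 also had reads in more features than the rest, 28209, 30593 and 29846 against 19825 to 21524, but vehicle replicate 6 held only 32.25 CPM of the 9 IDs and had the lowest Nppa. The files do not name the 9 IDs, and their part in the Nppa levels was not tested. Atrial markers could not be paired with IDs either, so whether the tissue of these 2 libraries included atrium, where Nppa is mainly expressed, was not tested, and their Nppa values carry that doubt as right ventricle levels. Leaving out vehicle replicate 5, set apart by its high Nppa, raises the fold change almost by construction. Without monocrotaline replicate 3 alone the log2 fold change was 3.85. The values without both libraries thus rest on a choice made in part on Nppa itself and are a description. With the 9 remaining libraries Nppa averaged 59.05 ± 50.8 CPM in the vehicle group (SD, n = 5) and 3095 ± 763 CPM in the monocrotaline group (SD, n = 4), and its lowest monocrotaline value was 14.0 times its highest vehicle value. The log2 fold change was then 5.72, SE 0.54 (edgeR, FDR = 7.01e-04), and those of Nppb and Acta1 were 2.78 and 2.46. In the same 9 libraries the log2 ratios of Nppa over Nppb and over Acta1 rose by 3.04 and 3.37 (adjusted exact permutation p = 0.0119 for both). Without vehicle replicate 5 the groups did not overlap in either ratio. Each unadjusted p was therefore the smallest its splits allow, and it describes the chosen libraries alone.

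**Figure D3:**
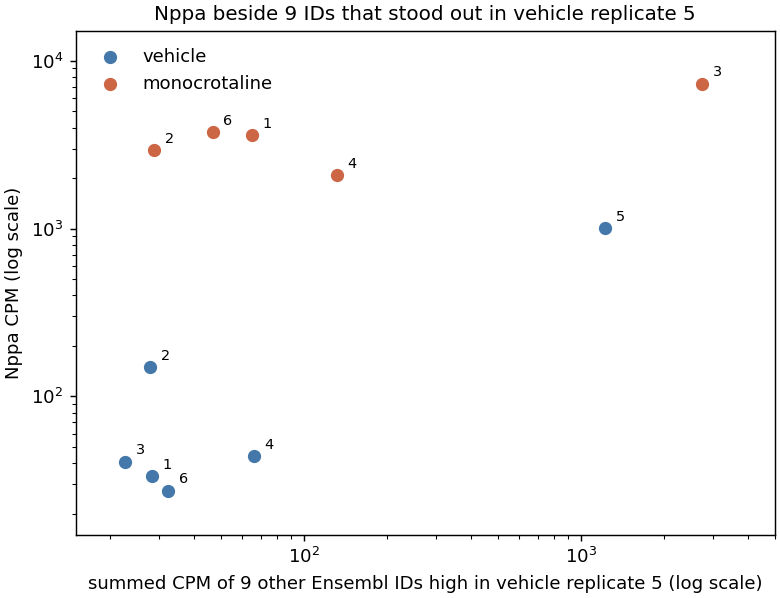
Each point is 1 library, numbered by replicate, with the summed CPM of the 9 other Ensembl IDs that stood out in vehicle replicate 5 on the x axis and Nppa CPM on the y axis, both on log axes. Vehicle replicate 5 (1225 CPM) and monocrotaline replicate 3 (2731 CPM) lie to the right of the other 9 libraries, among which the groups stay apart for Nppa.

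The monocrotaline libraries differed in how far each gene rose, and the order was not the same for the 3 genes. Relative to the vehicle median, Nppa was 48.9-fold in replicate 4, 69.05-fold in replicate 2, 84.9-fold in replicate 1, 88.1-fold in replicate 6 and 171.6-fold in replicate 3. Nppb lay at 6.28, 6.32 and 6.33-fold in replicates 4, 1 and 2, 8.31-fold in replicate 3 and 10.96-fold in replicate 6. Acta1 was 3.07-fold in replicate 4, 6.72, 6.87 and 6.94-fold in replicates 3, 2 and 1, and 12.95-fold in replicate 6. Replicate 4 was lowest for all 3 genes, for Nppb by under 1% of the next value as replicates 1, 2 and 4 were level. Replicate 6 was highest for Nppb and Acta1, and replicate 3 for Nppa.

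The spread inside the monocrotaline group, as the SD of log2 CPM, was 0.66 for Nppa, 0.36 for Nppb and 0.74 for Acta1. It was 1.98, 0.84 and 0.95 in the vehicle group in the same order, so the SD of each gene was larger among vehicle libraries, a difference that was not tested. Of all tested features, 87.2% had a smaller SD than Nppa, 58.3% than Nppb and 90.4% than Acta1 in the monocrotaline group. In the vehicle group the shares were 99.6%, 94.8% and 96.3%. Without the library farthest from the group median, the SD with monocrotaline was 0.39 for Nppa, 0.20 for Nppb and 0.46 for Acta1, and with vehicle 0.95, 0.41 and 0.70. Leaving out the farthest library tends to lower any SD, and all of these fell in both groups. The vehicle SDs of Nppa and Nppb fell the most. No measure of pressure or wall stress was analysed here, so the spread cannot be set against load.

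The place of each library on the whole transcriptome was set beside these values. A score was taken from all tested features other than the 3 genes, running from 0% (mean of vehicle) to 100% (mean of monocrotaline), each library scored from the means of the others. Monocrotaline replicate 4, lowest for all 3 genes, scored 37.98%. Replicate 6, highest for Nppb and Acta1, scored 86.9%, below replicates 2, 1 and 3 with 100.2%, 102.9% and 110.1%. Among the vehicle libraries replicate 5 scored highest, 28.04%, with Nppa of 1003 CPM but Nppb and Acta1 inside the range of its group. Vehicle replicate 6, lowest for all 3 genes, scored 13.75%. Vehicle replicates 5 and 6 and monocrotaline replicate 3, which led their groups in score, also had reads in the most features (28209, 30593 and 29846). Vehicle replicate 2, with reads in 20098 features, scored 13.01%, close to vehicle replicate 6. Whether the score follows the number of features with reads was not tested, so a high score need not mean likeness to the monocrotaline group.

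**Figure D4:**
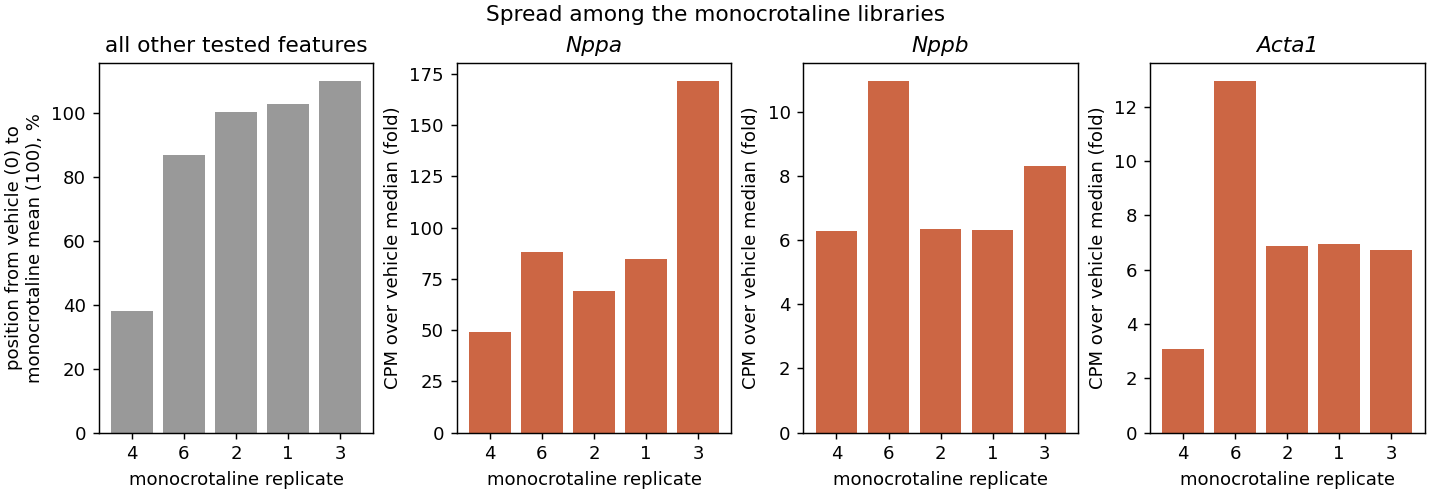
Bars show the 5 monocrotaline libraries in order of their score (0% vehicle mean, 100% monocrotaline mean), then the fold of each library's Nppa, Nppb and Acta1 CPM over the vehicle median, all on linear axes from 0. Replicate 4 is lowest in every panel, while replicate 3 leads for Nppa (171.6-fold) and replicate 6 for Nppb (10.96-fold) and Acta1 (12.95-fold).

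Among the 6 vehicle libraries no pair of the genes was shown to vary together. Pearson's r of log2 CPM was 0.25 for Nppa and Nppb (n = 6, exact permutation p = 0.572), with Spearman's rho 0.20 (exact permutation p = 0.714). For Nppa and Acta1, r was 0.43 (exact permutation p = 0.401) and rho 0.77 (exact permutation p = 0.103). For Nppb and Acta1, r was 0.65 (exact permutation p = 0.154) and rho 0.54 (exact permutation p = 0.297). Over the 3 pairs the lowest adjusted exact permutation p was 0.462 for r and 0.309 for rho. Without the 2 libraries farthest from the median of the first gene of a pair, r became 0.66, 0.78 and -0.69, so the sign for Nppb and Acta1 rested on those libraries. With 5 monocrotaline libraries no correlation was computed.

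The transcripts most alike to each gene were sought by the correlation of log2 CPM after removing each group's mean, over 11 libraries and 10018 Ensembl IDs with an average log2 CPM of at least 1. For Nppa the highest was ENSRNOG00000021161 (r = 0.94), which averaged 6.90 ± 1.81 CPM in vehicle (SD, n = 6) and 14.65 ± 1.21 CPM in monocrotaline libraries (SD, n = 5; log2 fold change 1.08, SE 0.16, edgeR FDR = 0.00119). For Acta1 it was ENSRNOG00000015980 (r = 0.92), at 4.82 ± 0.62 CPM (SD, n = 6) and 7.18 ± 0.96 CPM (SD, n = 5; log2 fold change 0.58, SE 0.15, edgeR FDR = 0.0143). The second for Acta1 was abundant, at 1914 ± 454 CPM in vehicle (SD, n = 6) and 4428 ± 961 CPM in monocrotaline libraries (SD, n = 5), with r = 0.87. Both of the IDs most alike to Nppb (r = 0.92 and 0.90) had no call between the groups, with log2 fold changes of 0.12 and 0.03. The members were less alike to each other by this measure, with r = 0.27 for Nppa and Nppb, 0.42 for Nppa and Acta1 and 0.65 for Nppb and Acta1. These are the highest of 10018 values per gene and describe the 11 libraries alone. For the ID most alike to Nppa, vehicle replicate 5 was also the highest vehicle library, at 10.38 CPM against 7.19 in the next. The r of that pair may rest largely on that library and was not computed without it.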

How the data were processed

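RNA counts from 6 vehicle and 5 monocrotaline right ventricle libraries were used. Per the labels' protocols, ribosomal RNA was depleted and stranded libraries were sequenced. Named in the submitters' processing notes are HISAT2 and StringTie, with cutadapt, FastQC and bcl2fastq. The strand setting of counting, like versions, build and annotation, is not given in the sources used here, so reads of overlapping or antisense genes may be included. The authors deposited raw counts for 29682 Ensembl IDs and 7868 assembled loci, with no normalization, and 0 columns of other samples. The authors' deposited comparison holds log2 fold changes, log2 CPM, p-values and FDR values, per the file headers.

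The test was edgeR 4.0.16 quasi-likelihood (R 4.3.3, robust, TMM, filterByExpr with minimum count 10 and total 15, Benjamini-Hochberg over 15099 features), checked on simulated data. The simulated libraries of a group differed only in size and random draw. The check therefore does not cover a library set apart like vehicle replicate 5. Standard errors were the size of the log2 fold change divided by the root of the F statistic. Ratios used counts plus 0.5, exact permutation of all splits, and intervals by inverting that test. Log2 CPM used a prior count of 2. Alternatives used DESeq2 1.42.0 and limma 3.58.1. Planned ratios with Myh7 (3 of 6) could not be computed, as its ID is absent from the count table. Symbol lists and cell type markers were not analysed here, since 0 RefSeq rows carry an Ensembl ID. Named genes were the 4 members and the 2 IDs most alike to each, of which at most 2 are named by ID. The deviations of same-numbered libraries from their group means had correlations of -0.21 to 0.16. Libraries of unlike number were not compared, so these values cannot decide whether the numbers pair samples. The members, lists and rules were chosen with earlier results of these data known, and the 5-fold rule for IDs standing out in 1 library was chosen after seeing the data.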

Additional observations from a re-analysis of the deposited data

Results flagged for a closer look

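Each group of libraries was examined for 1 library far from the rest, by the gap between it and its neighbour as a part of the whole range (Dixon's criterion). By chance about 1 group in 20 has such a library. There were 3 among 12 groups, which share Nppa and are not independent. All 3 were vehicle replicate 5. CPM was examined on a linear scale and ratios on a log2 scale. On log2 CPM the Nppa gap was 0.53 of the range, under the limit, so its mark depends on the scale. Nppa stood at 1003 CPM there, against 149.1 CPM in the next vehicle library. Its log2 ratio of Nppa over Nppb was 3.427, against -0.26 in the next, and its log2 ratio of Nppa over Acta1 was 1.397, against -2.41. The Nppa value of monocrotaline replicate 3, 7302 CPM against 3748 in the next, did not meet the criterion.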

How the results depend on the processing

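Over 25 alternatives the log2 fold change of Nppa ran from 3.85 to 6.26, that of Nppb from 2.55 to 3.07 and that of Acta1 from 2.15 to 2.89, and none changed sign. Nppb and Acta1 kept an FDR under 0.05 in all 25 and Nppa in 24. With no filter on low counts Nppa was 4.19 (FDR = 0.0568), which left 2 of the 3 genes called, and 971 features were lower. That alternative tests more features, but the cause was not tested. Nppa rose most, to 6.26, with the replicate block on the 10 libraries sharing numbers, which leaves out vehicle replicate 5. The same 10 libraries with no replicate block gave 6.06. With the replicate block Nppb was 2.91 and Acta1 2.61. The block changed no call of the 3 genes. It gave 1348 features higher and 1231 lower, against 1731 and 1441 without it. limma-voom gave 5.50 for Nppa, and the detection class as a covariate gave 5.16.

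Library totals alone gave 3541 features higher and 986 lower and moved the median log2 fold change to 0.21, with the 3 genes at 4.42, 3.07 and 2.66. The 8 libraries with reads in at most 25000 features gave 1087 higher and 653 lower, with fewer samples, and the 3 genes at 5.53, 2.55 and 2.25. The 9 libraries other than vehicle replicate 5 and monocrotaline replicate 3, a choice made after seeing the data like edgeR without robust estimates, gave 984 lower.

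Leaving out each library gave log2 fold changes of 3.85 to 6.06 for Nppa, 2.68 to 3.05 for Nppb and 2.15 to 2.89 for Acta1, and 1447 to 2501 features higher and 1123 to 2330 lower. The difference in log2 ratio was 2.15 to 3.26 for Nppa over Nppb, 2.61 to 3.62 for Nppa over Acta1 and 0.18 to 0.59 for Nppb over Acta1. DESeq2 gave no adjusted p for 28 features, none of them these genes. Alternatives for Myh7 were not run. Depth does not limit these genes, as the lowest count was 241.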
